A study of Rattus norvegicus with 46 samples.

Results

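The genes described here encode the contractile apparatus of slow-twitch (type I) muscle fibres, and were followed in quadriceps muscle of DIO (diet-induced obese) rats. They were chosen by symbol, as 10 genes: the slow myosin heavy chain Myh7 and its relative Myh7b, the myosin light chains Myl2, Myl3 and Myl6b, the troponin subunits Tnni1, Tnnt1 and Tnnc1, the tropomyosin Tpm3 and the Z-disc protein Myoz2. Of the 32552 genes in the count table, 9 were these, each with 1 row, and Myl6b, for which no row was matched, was not analysed here. All 9 passed the filter on low counts.

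Bulk RNA from quadriceps gave 8 CagriSema, 8 weight-matched and 7 vehicle libraries, all from rats of wild-type genotype. CagriSema pairs 2 appetite-lowering peptides, the amylin analog cagrilintide and the GLP-1 receptor agonist semaglutide. The weight-matched rats had their food restricted to reach a matched body weight, and the vehicle rats were the control. Dose, strain, sex and age are not given in the labels, the treatment length stated for liver was not carried over to muscle, and whether each library is a different rat is not stated. The p-values therefore measure the spread between these libraries, which may in part be technical. Libraries are called here by the numbers in their titles, 33 to 40 for CagriSema, 25 to 32 for weight-matched and 1 to 8, without 3, for vehicle.

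Skeletal muscle is a mosaic of slow, fatigue-resistant fibres, rich in mitochondria, and of fast fibres that contract quickly and tire sooner. Each type builds its sarcomeres from its own isoforms of myosin, troponin, tropomyosin and their partners, so the ratio of slow to fast transcripts is commonly used as a sign of fibre composition. In the quadriceps of rodents, slow fibres are concentrated in the deep part of the muscle and the bulk of the fibres are fast. Myh7, Myl2, Myl3, Tnnc1 and Myoz2 are also made in heart muscle.

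Library totals ran from 12233937 to 16173600 counts with CagriSema, from 13494568 to 16043459 with weight matching and from 11462369 to 16525274 with vehicle. Mitochondrially encoded genes took 12.5% to 17.1% of counts in CagriSema libraries, 10.99% to 16.8% in weight-matched libraries and 10.96% to 22.8% in vehicle libraries. Vehicle library 8, which had the highest of these shares, lay farthest out on the first principal component, at 39.4, and the second component set apart vehicle library 2, at -43.9, and vehicle library 5, at -40.5. The members' medians, the shares and the genes called against vehicle are given with and without these 3 libraries. Markers of muscle fibres (7 with a row, Acta1 and Ckm among them) summed to 63600 to 75230 CPM, counts scaled to a common library total, in CagriSema libraries, 64060 to 90390 CPM in weight-matched libraries and 51810 to 80900 CPM in vehicle libraries. Listed markers of heart muscle were not uniformly absent from quadriceps. Tnni3, Nppa and Myl7 were at or near 0, with a highest level in any library of 0.307, 0.287 and 0.148 CPM. The others on that list were higher. Myh6 reached 149 CPM in vehicle library 8, Actc1 121.5 CPM and Tnnt2 27.05 CPM in vehicle library 5, and Myl4 52.5 CPM in weight-matched library 30. Hepatocyte markers (3 genes) summed to at most 14.6 CPM in CagriSema, 1.10 CPM in weight-matched and 35.8 CPM in vehicle libraries.

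None of the 9 slow-fibre contractile genes passed the test in any of the 3 comparisons, and yet they were among the most variable genes of the muscle, and they were high or low together from library to library inside each group. Weight-matched libraries had the lowest group mean for each of the 9 genes, with a median log2 fold change of -0.98 against vehicle over the genes. Against vehicle, CagriSema gave a median log2 fold change of -0.13. Set against weight matching, it gave a median log2 fold change of 0.84. In bulk RNA, fewer slow fibres and less slow-isoform RNA per fibre cannot be told apart.

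The heavy chain Myh7, the motor protein that defines the slow fibre, showed the scale of this spread. With CagriSema, Myh7 had a lowest, median and highest level of 1038, 2699 and 4095 CPM over 8 libraries. With weight matching, it had 171, 1002 and 3304 CPM over 8 libraries. With vehicle, it had 301, 1192 and 6788 CPM over 7 libraries. CagriSema library 33, weight-matched library 30 and vehicle library 1 were the lowest of their groups, vehicle libraries 5, 7 and 8 lay at 3897, 6383 and 6788 CPM, and all 3 groups overlapped. The highest library exceeded the lowest 3.94-fold with CagriSema, 19.3-fold with weight matching and 22.6-fold with vehicle, and whether the spread itself differed between the groups was not tested. Myh7 averaged 2676 ± 1133 CPM with CagriSema, 1494 ± 1145 CPM with weight matching (SD, n = 8 each) and 2925 ± 2755 CPM with vehicle (SD, n = 7). The vehicle mean was thus a little above the CagriSema mean, while the vehicle median was less than the CagriSema median.

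**Figure D1:**
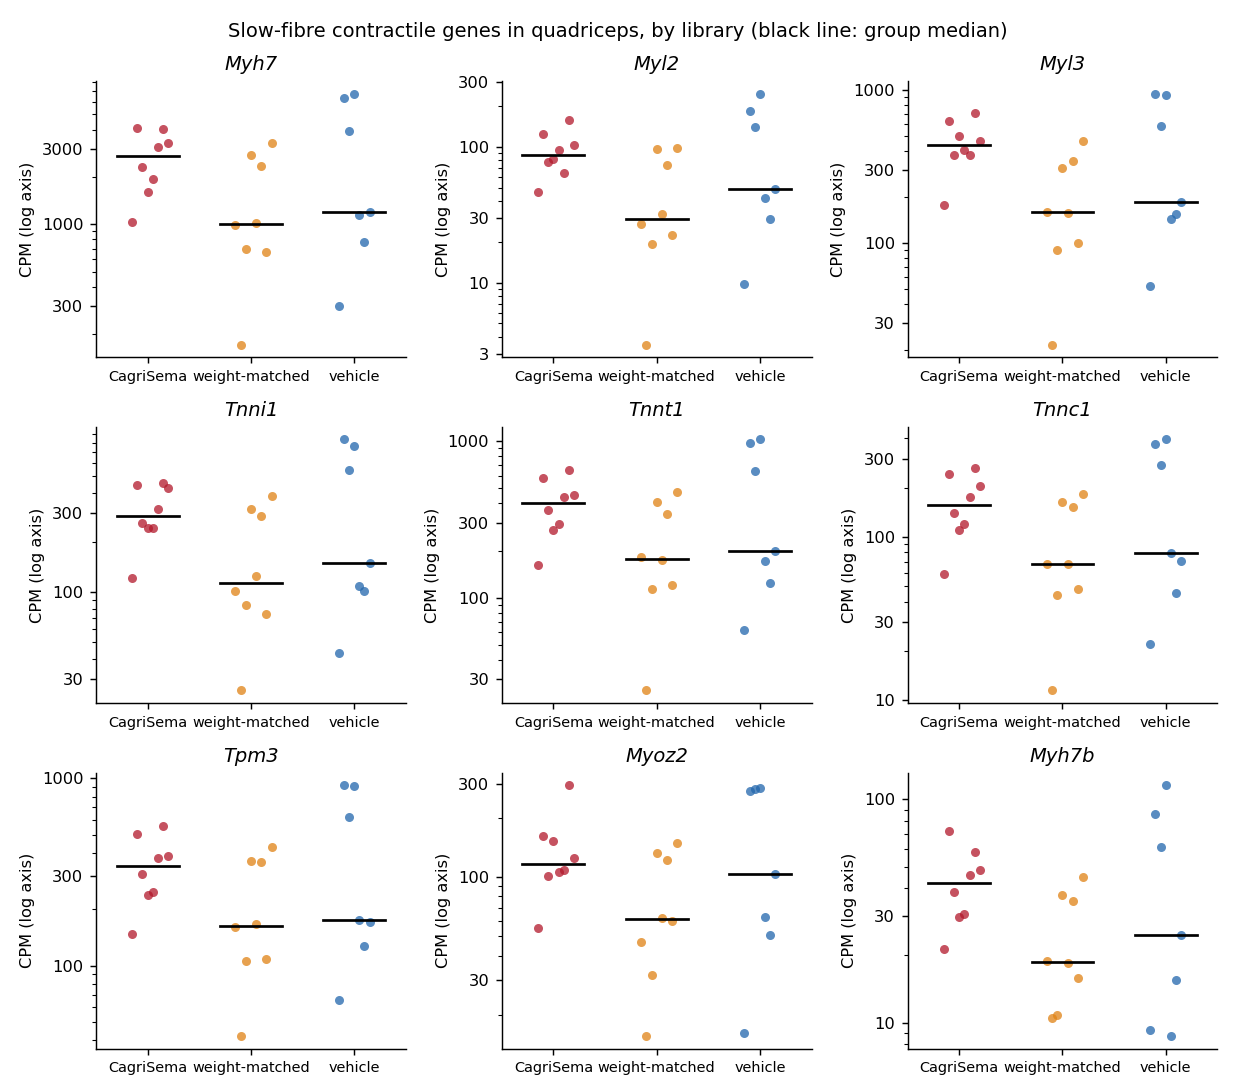
Level of each of the 9 slow-fibre contractile genes in every quadriceps library, in CPM on a log axis, with CagriSema (n = 8) left, weight-matched (n = 8) in the middle and vehicle (n = 7) right; black lines are group medians. For every gene the groups overlap, the CagriSema median is the highest, and vehicle libraries spread over a wide range, 301 to 6788 CPM for Myh7.

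The log2 fold change of Myh7 was -0.13 ± 0.61 (SE) for CagriSema over vehicle, with a 95% interval of -1.40 to 1.14 and an adjusted p of 0.958 in edgeR's quasi-likelihood test. For weight matching over vehicle it was -0.97 ± 0.61, with an interval of -2.24 to 0.30 and an adjusted p of 0.402. For CagriSema over weight matching it was 0.84 ± 0.59, with an interval of -0.40 to 2.08 and an adjusted p of 0.775. These intervals run from a fold of 0.380 to 2.21 in the first comparison, from 0.211 to 1.24 in the second and from 0.760 to 4.22 in the third, so these libraries do not separate equal levels from sizeable differences. Both comparisons against vehicle use the same 7 vehicle libraries, and both with weight matching use the same 8 weight-matched libraries.

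Myh7b, a slow-type heavy chain gene whose messenger is known in mice to be spliced so that skeletal muscle makes little of the protein, followed the same order at a lower count. Its lowest, median and highest levels were 21.4, 42.1 and 72.1 CPM with CagriSema, 10.5, 18.7 and 44.9 CPM with weight matching, and 8.69, 24.7 and 115.8 CPM with vehicle. Here the lowest vehicle library was library 2 and not library 1, the groups overlapped throughout, and vehicle library 8 was again the highest of all. The log2 fold changes of Myh7b were -0.08 ± 0.50 for CagriSema over vehicle, -0.92 ± 0.50 for weight matching over vehicle and 0.84 ± 0.49 for CagriSema over weight matching, with adjusted p-values of 0.967, 0.325 and 0.714 in the same test.

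Both heavy chain genes carry a microRNA gene within them, which is why the mature sequences are shown here, credited to RefSeq on build GRCr8. The miR-499 gene lies inside Myh7b, with its mature arm at chr3:164570616-164570636 on the plus strand, and the miR-208b gene inside Myh7, with its mature arm at chr15:32421648-32421665 on the minus strand. Capitals mark the seed, bases 2 to 8 counted from 1 at the 5′ end.
rno-miR-499-5p: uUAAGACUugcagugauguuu
rno-miR-208b-3p: aUAAGACGaacaaaaggu
The 2 seeds share 6 of 7 bases and differ by U8G (miR-499 base, position, miR-208b base). In mice these microRNAs are known to support slow myosin expression. Their rows in the count table held next to nothing: Mir208b had 29 counts in all over 14 of 23 quadriceps libraries, and Mir499a had 0 counts in each, which allows up to 0.183 to 0.255 CPM in a library, taking 3 counts as the floor, for counting error only. No level was therefore compared.

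Among the light chains, Myl3, the essential light chain of slow and ventricular myosin, gave the largest difference between CagriSema and weight matching of the 9 genes. Its lowest, median and highest levels were 176, 435 and 700.2 CPM with CagriSema, 21.7, 159 and 462 CPM with weight matching, and 52.1, 186 and 944 CPM with vehicle. All 8 CagriSema libraries lay above 5 of the 8 weight-matched libraries, and overlapped the other 3. The log2 fold change of Myl3 for CagriSema over weight matching was 1.14 ± 0.57, with a 95% interval of -0.04 to 2.32, an unadjusted p of 0.0584 and an adjusted p of 0.661. Against vehicle its log2 fold change was 0.08 ± 0.58 with CagriSema and -1.05 ± 0.58 with weight matching, with adjusted p-values of 0.974 and 0.332.

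Myl2, the regulatory light chain that is phosphorylated in slow and cardiac muscle, had lowest, median and highest levels of 46.1, 87.4 and 158 CPM with CagriSema. It had 3.49, 29.5 and 98.2 CPM with weight matching, and 9.71, 49.0 and 246 CPM with vehicle. Weight-matched library 30 and vehicle library 1 were again the lowest, and every group overlapped the others. The log2 fold changes of Myl2 were -0.10 ± 0.59 for CagriSema over vehicle, -1.11 ± 0.60 for weight matching over vehicle and 1.003 ± 0.58 for CagriSema over weight matching, with adjusted p-values of 0.966, 0.325 and 0.714.

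The troponin complex sits on the thin filament and makes contraction depend on calcium: Tnnc1 binds calcium, Tnni1 keeps actin and myosin from interacting at rest and Tnnt1 ties the complex to tropomyosin. Tnnc1 had lowest, median and highest levels of 59.4, 157 and 263 CPM with CagriSema, 11.4, 67.8 and 182 CPM with weight matching, and 21.9, 79.4 and 394 CPM with vehicle. Tnni1 had 123, 291 and 458 CPM with CagriSema, 25.7, 114 and 379 CPM with weight matching, and 43.5, 150.3 and 836 CPM with vehicle. Tnnt1 had 162, 401 and 649.8 CPM with CagriSema, 25.5, 177 and 474 CPM with weight matching, and 61.7, 198 and 1026 CPM with vehicle. In all 3 troponin genes the lowest library of each group was the one that was lowest for Myh7, and no pair of groups was separate. For CagriSema over weight matching, the log2 fold changes were 0.83 ± 0.56 for Tnnc1, 0.85 ± 0.58 for Tnni1 and 0.81 ± 0.56 for Tnnt1, with adjusted p-values from 0.758 to 0.769. For weight matching over vehicle they were -0.96 ± 0.58, -1.06 ± 0.60 and -0.99 ± 0.58 in the same order, with adjusted p-values from 0.340 to 0.382. None of these differences exceeded the spread between libraries.

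Tpm3, whose muscle isoform is the slow alpha-tropomyosin that troponin rides on, had lowest, median and highest levels of 147, 342 and 558 CPM with CagriSema, 42.0, 164 and 433 CPM with weight matching, and 65.9, 175 and 920.4 CPM with vehicle. The gene also makes tropomyosins of non-muscle cells, and in the 23 liver libraries of the same series Tpm3 had 74.0 to 109 CPM. A count for the whole gene does not separate these isoforms. The log2 fold changes of Tpm3 were -0.31 ± 0.54 for CagriSema over vehicle, -0.98 ± 0.55 for weight matching over vehicle and 0.67 ± 0.53 for CagriSema over weight matching, with adjusted p-values of 0.876, 0.337 and 0.810.

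Myoz2, or calsarcin-1, a Z-disc protein of slow and heart muscle that binds the phosphatase calcineurin, had lowest, median and highest levels of 55.0, 117 and 295 CPM with CagriSema, 15.5, 61.2 and 149.9 CPM with weight matching, and 16.2, 104 and 285 CPM with vehicle. CagriSema library 35 stood apart at 295 CPM, the highest of all 23, and the groups overlapped. Its log2 fold changes were -0.15 ± 0.54 for CagriSema over vehicle, -0.98 ± 0.54 for weight matching over vehicle and 0.83 ± 0.53 for CagriSema over weight matching, with adjusted p-values of 0.944, 0.333 and 0.739.

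In liver, which should hold no sarcomeres, the genes other than Tpm3 were low. Myh7 had 0 counts in 21 of 23 liver libraries and at most 1.89 CPM, Myoz2 had 0 counts in 21, Myl2 in 22 and Tnni1 in 20, and a count of 0 allows up to 0.182 to 0.364 CPM in a liver library. Myh7b had 1.70 to 6.29 CPM in liver, which is less than in any quadriceps library, where its lowest was 8.69 CPM. Levels in the 2 tissues were scaled separately.

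Set against the rest of the transcriptome, the slow-fibre genes did not stand out by their calls. For CagriSema over vehicle, 0 of 9 passed an adjusted p of 0.05 in edgeR, where 4 of 12471 genes tested, 0.0321%, did, all of them lower. In weight matching over vehicle, 0 of 9 passed, where 285 genes, 2.29%, did. Between CagriSema and weight matching, 0 of 9 passed, where 16 genes, 0.128%, did, 0.0481% of all genes higher and 0.0802% lower. At an unadjusted p under 0.05 the count was also 0 of 9 in each comparison, where 10.3%, 19.2% and 7.65% of all genes lay under that limit. For weight matching over vehicle that unadjusted count rose to 8 of 9 without vehicle library 1 and to 6 of 9 without weight-matched library 32. DESeq2 and limma-voom with sample quality weights gave 0 of 9 past an adjusted p of 0.05 in each comparison too, where 0.289%, 6.27% and 0.251% of all genes passed in DESeq2 and 0%, 0.425% and 0.233% in voom, in the order of comparisons above. At an unadjusted p under 0.05, DESeq2 gave 0, 0 and 1 of 9, where 6.95%, 12.6% and 5.23% of all genes lay under that limit, and voom gave 0, 0 and 2 of 9, where 6.86%, 13.6% and 10.7% did. The shares of edgeR and voom are over 12471 genes. Those of DESeq2 are over 13137, 11057 and 13553 genes for adjusted p and over 21458 for unadjusted p, so they are not over the same genes.

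Their fitted changes were sizeable in 2 of the 3 comparisons, with wide errors. With weight matching over vehicle, the log2 fold change was negative for 9 of 9 genes, from -1.11 to -0.92, with a median of -0.98 where the median over all genes tested was -0.01, and adjusted p-values ran from 0.325 to 0.402. For CagriSema over weight matching it was positive for 9 of 9, from 0.67 to 1.14, with a median of 0.84 where all genes had -0.0005, and adjusted p-values ran from 0.661 to 0.810. For CagriSema over vehicle it was negative for 8 of 9, from -0.31 to 0.08, with a median of -0.13 where all genes had -0.01, and adjusted p-values ran from 0.876 to 0.974. Because the 9 genes move together the 9 signs are not independent of each other. Without vehicle libraries 2, 5 and 8 the median over the 9 genes was 0.31 for CagriSema over vehicle and -0.54 for weight matching over vehicle. Leaving out vehicle library 8 alone gave 0.19 and -0.68, vehicle library 7 alone 0.14 and -0.70, vehicle library 5 alone 0.003 and -0.89, and vehicle library 1 alone -0.33 and -1.18. The direction against vehicle for CagriSema thus changed with single vehicle libraries.

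**Figure D2:**
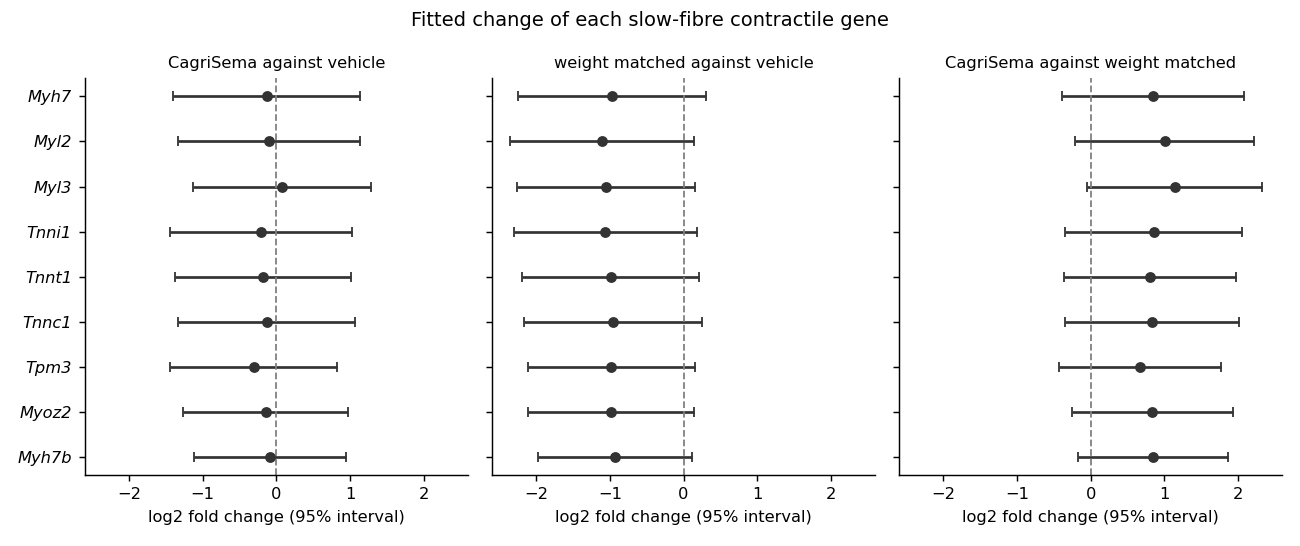
Fitted log2 fold change of each gene with its 95% interval in the 3 comparisons named above the panels, from edgeR's quasi-likelihood fit to 23 quadriceps libraries; the dashed line is no change. Every interval includes 0, those for weight matching over vehicle lie mostly to the left and those for CagriSema over weight matching mostly to the right.

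The width of these intervals came from variation inside the groups. After removal of the group means, the SD of log2 CPM over libraries was 1.31 for Myh7, 1.34 for Myl2 and 1.02 for Myh7b, where the median gene tested had 0.23. The 9 genes lay between the 99.0 and 99.7 percentiles of this SD among 12471 genes. Among the 6902 genes with a mean of at least 10 CPM they lay between the 99.5 and 99.8 percentiles.

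Within the groups, the 9 genes kept nearly the same order of libraries. Deviations of log2 CPM from the group mean correlated between members with Pearson's r from 0.869, for Myl2 with Myh7b, to 0.996, with a median of 0.974 over 36 pairs and 23 libraries. Spearman's rho ran from 0.886 to 0.995. The libraries share their depth, scaling and composition across genes, and the genes of 1 fibre type share their cells. Closest to Myh7 were 2 thin-filament genes: Tnnc1, with r = 0.996 and rho = 0.984, and Tnnt1, with r = 0.996 and rho = 0.987. Tpm3 had r = 0.994 and Tnni1 r = 0.991. Myl3 with r = 0.9749, Myl2 with r = 0.974, Myoz2 with r = 0.943 and Myh7b with r = 0.915 were looser. The permutation p was 1e-05 for each of these 8 relations, the smallest that 100000 permutations can give. It was also 1e-05 for the 4 with Myh4, Myh6, Atp2a2 and Mb given below. Each stayed 1e-05 after Benjamini-Hochberg adjustment over the 12. Those 4 partners were chosen after values were seen, so their p-values are no test. Myh6 and Atp2a2 had the highest correlations with the mean of the 9 genes among 10657 genes. Myh6 counts may also be reads shared with Myh7. Without the 2 libraries farthest from the median of Myh7, weight-matched library 30 and vehicle library 1, r over the 8 genes ran from 0.907 for Myoz2 to 0.995 for Tnnt1.

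Inside single groups, r with Myh7 was lowest among CagriSema libraries for 7 of the 8 genes, and for Myh7b it was highest there. Myh7 also varied least there, with an SD of log2 CPM of 0.70, against 1.40 with weight matching and 1.69 with vehicle. A narrower range can lower r by itself, and whether r differed between groups was not tested. With CagriSema r with Myh7 was 0.786 for Myl2, 0.807 for Myl3 and 0.739 for Myoz2, against 0.969 to 0.991 for the troponins, Tpm3 at 0.989 and Myh7b at 0.978. In weight-matched libraries r over the 8 genes ran from 0.925 for Myh7b to 0.998 for Tnnc1, and in vehicle libraries from 0.931 for Myh7b to 0.998 for Tnnt1. CagriSema library 39 was part of this: its Myh7, at 1595 CPM, was the next to lowest of its group, while its Myl3, at 498 CPM, and its Myoz2, at 154 CPM, were the third highest. The share of mitochondrially encoded counts moved with the 9 genes in part. Weight-matched libraries 29, 31 and 32, the 3 highest of their group by the mean standardised deviation of the 9 genes, also had its 3 highest mitochondrial shares (15.2%, 15.4% and 16.8%), and vehicle libraries 7 and 8, the 2 highest of theirs, had 18.96% and 22.8%. CagriSema library 33, the lowest of its group for the 9 genes, had its lowest mitochondrial share, 12.5%, but library 34, with the highest, 17.1%, lay below the group mean for the 9 genes. Weight-matched library 30 and vehicle library 1, the lowest of their groups for the 9 genes, had mid-range shares of 14.3% each. Without mitochondrially encoded genes in the fit, the median log2 fold change of the 9 genes was -0.13 for CagriSema over vehicle, -0.98 for weight matching over vehicle and 0.84 for CagriSema over weight matching, as with them.

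**Figure D3:**
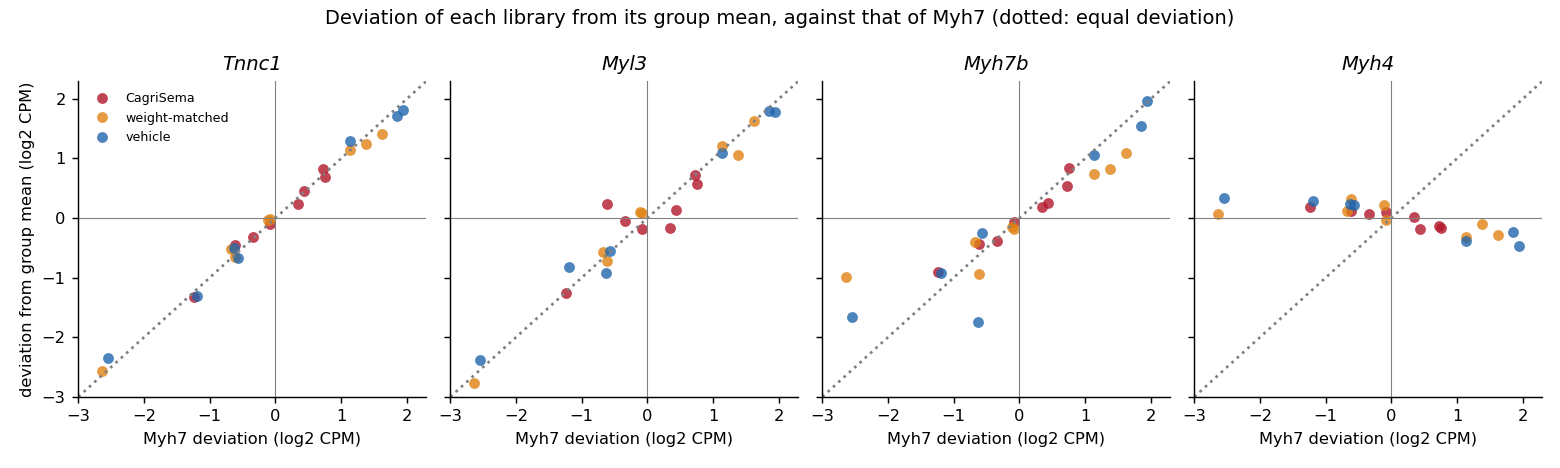
Deviation of each quadriceps library from its group mean in log2 CPM, for Tnnc1, Myl3, Myh7b and the fast heavy chain Myh4 (y axes) against Myh7 (x axis); colours are the 3 groups and the dotted line marks equal deviations. Tnnc1 follows the line closely (r = 0.996), Myl3 and Myh7b scatter more (r = 0.9749 and 0.915), and Myh4 runs the other way over a much narrower range (r = -0.825).

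How far each gene moved per unit of Myh7 also differed. The slope of a gene's deviation on that of Myh7 was 0.94 to 0.997 for Tnnt1, Tnni1, Tnnc1 and Myl2, with Myl3 at 0.93, and 0.86 for Tpm3, 0.84 for Myoz2 and 0.71 for Myh7b. In weight-matched library 30, where Myh7 was lowest, there were 24.6 Tpm3 counts per 100 Myh7 counts and 6.12 Myh7b counts, where the weight-matched medians were 15.7 and 1.69. These ratios are counts not divided by transcript length, and serve only to compare libraries for the same gene.

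The ratio to Myh7 was compared between groups, a comparison chosen after the values were seen. Tpm3 averaged 13.2 ± 1.1 counts per 100 Myh7 counts with CagriSema (SD, n = 8), 16.3 ± 3.6 with weight matching (SD, n = 8) and 16.0 ± 2.8 with vehicle (SD, n = 7). Its CagriSema values ran from 11.7 to 14.9 and overlapped those of both other groups, which began at 13.1 with weight matching and 13.5 with vehicle. The Tpm3 ratio was 0.820-fold with CagriSema over weight matching, with an exact two-sided permutation p of 0.0076, and 0.830-fold over vehicle, with an exact p of 0.0059; over the 27 such tests the adjusted p was 0.103 for both. The ratio of Myl2 to Myh7 averaged 2.95 ± 0.45 counts per 100 with weight matching (SD, n = 8) and 3.57 ± 0.40 with vehicle (SD, n = 7), 0.822-fold, with an exact permutation p of 0.0146 and an adjusted p of 0.132. Myl3 averaged 18.02 ± 5.94 with CagriSema, 14.0 ± 1.7 with weight matching (SD, n = 8 each) and 15.6 ± 2.4 with vehicle (SD, n = 7), and the exact permutation p of CagriSema over weight matching was 0.0533, 0.360 after adjustment. Of the 27 tests none passed after adjustment.

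**Figure D4:**
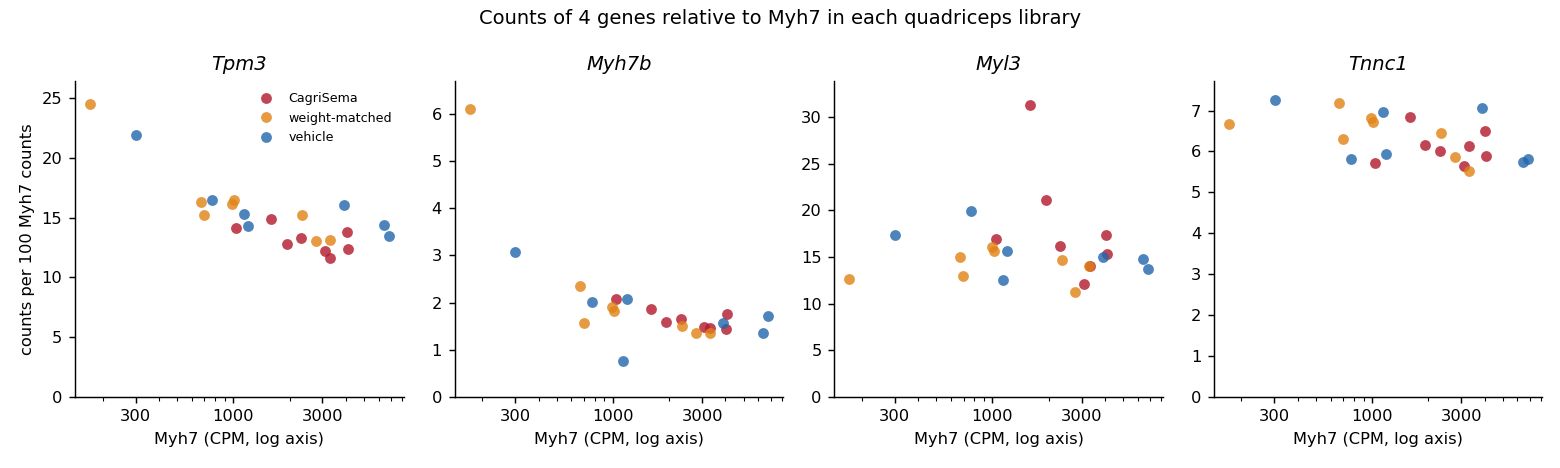
Counts of Tpm3, Myh7b, Myl3 and Tnnc1 per 100 Myh7 counts (y axes, from 0) against the level of Myh7 in CPM (x axes, log scale) in each quadriceps library, coloured by group. Tpm3 and Myh7b are highest relative to Myh7 in weight-matched library 30 (24.6 and 6.12), Tnnc1 is nearly flat, and Myl3 has 1 high point, CagriSema library 39 at 31.2.

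A share of slow over slow plus fast counts within a library needs no scaling between libraries, so the slow gene of each pair was set against its fast partner. The partners are the fast heavy chain Myh4, the fast troponins Tnni2, Tnnt3 and Tnnc2, the fast regulatory light chain Mylpf and the fast essential light chain Myl1. For the other adult fast heavy chains, Myh1 and Myh2, no row was matched. The heavy chain share is therefore Myh7 over Myh7 plus Myh4 and not over all heavy chains. Myh4 dominated in every library, with 66710 to 86170 CPM with CagriSema, 70910 to 109400 CPM with weight matching and 49890 to 87870 CPM with vehicle.

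The lowest, median and highest Myh7 shares were 1.19%, 3.33% and 5.75% with CagriSema, 0.185%, 1.06% and 4.37% with weight matching, and 0.341%, 1.45% and 11.98% with vehicle. Counting error was small beside this: the 95% Wilson interval of the lowest share, in weight-matched library 30, was 0.178% to 0.193%. Myh7 shares averaged 3.52% ± 1.71 with CagriSema (SD, n = 8), 1.81% ± 1.56 with weight matching (SD, n = 8) and 4.67% ± 4.80 with vehicle (SD, n = 7), and the exact permutation p was 0.0575 for CagriSema over weight matching, 0.140 for weight matching over vehicle and 0.532 for CagriSema over vehicle. Adjusted over 18 tests (6 shares in 3 comparisons) these were 0.187, 0.228 and 0.597.

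For CagriSema over weight matching, every one of the 6 shares had the higher mean with CagriSema, and none passed after adjustment. Myl3 differed by 4.19 percentage points (7.43% ± 2.81 with CagriSema and 3.24% ± 2.95 with weight matching, SD, n = 8 each), with an exact permutation p of 0.0135. The Myl2 share was 2.49% ± 1.15 with CagriSema and 1.13% ± 1.08 with weight matching (SD, n = 8 each), with an exact permutation p of 0.0252, and the Tnnt1 share was 3.10% ± 1.31 with CagriSema and 1.61% ± 1.28 with weight matching (SD, n = 8 each), with an exact permutation p of 0.0409. Tnni1 and Tnnc1 gave exact permutation p-values of 0.0517 and 0.0622, and the adjusted p was 0.187 for all 6 shares. Without weight-matched library 32 alone, the Myl3 share differed by 4.94 points with an adjusted exact permutation p of 0.0392, past the threshold, and no other share passed when a single library was left out. Against vehicle, the adjusted p lay between 0.228 and 0.258 for weight matching and between 0.597 and 0.832 for CagriSema. Without vehicle libraries 2, 5 and 8, weight-matched minus vehicle shares ran from -3.22 (Tnni1) to -0.734 (Tnnc1) points, and the adjusted exact permutation p was 0.776 for each of these 6 and 0.982 for each of the 6 with CagriSema.

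**Figure D5:**
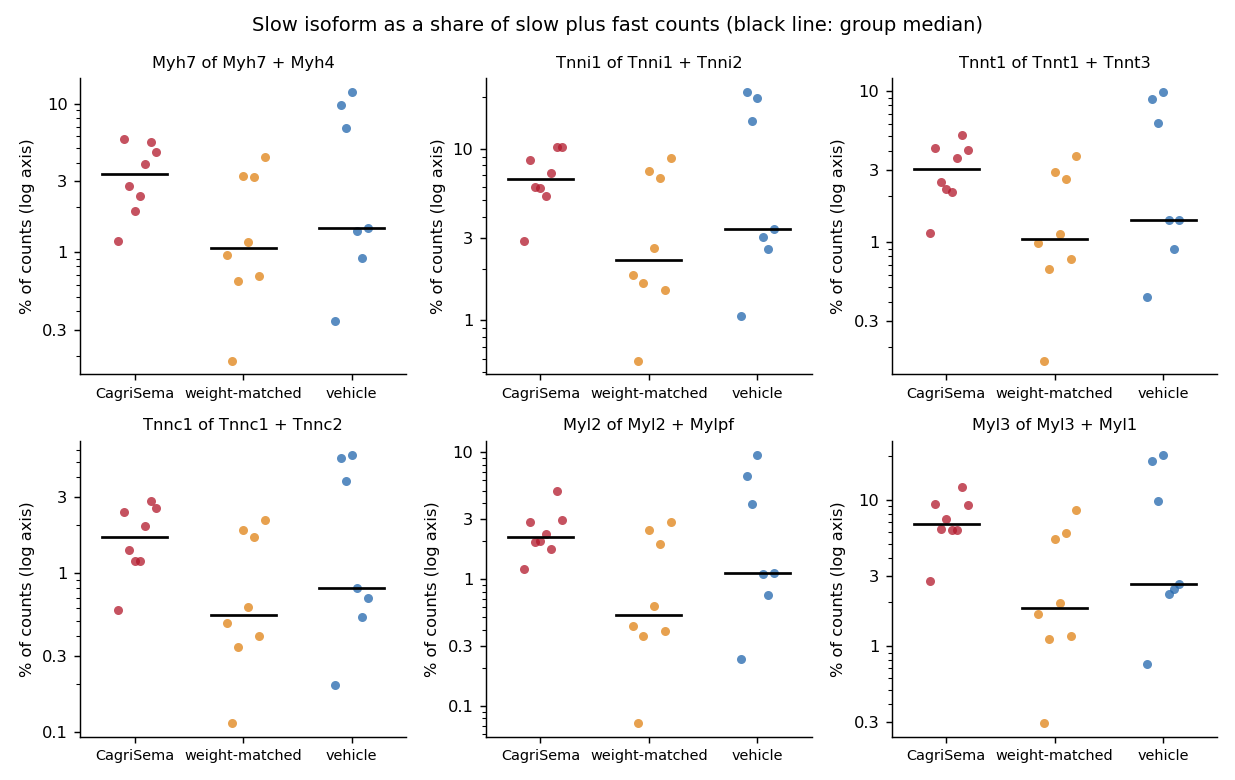
Slow gene as a percentage of slow plus fast counts in each quadriceps library, for 6 pairs, on log axes, with CagriSema (n = 8), weight-matched (n = 8) and vehicle (n = 7) from left to right; black lines are group medians. Medians are highest with CagriSema in all 6 panels (3.33%, 1.06% and 1.45% for Myh7), and the 3 highest values in each panel are vehicle libraries or, for Myl2 and Myl3, vehicle libraries and CagriSema library 35.

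The fast contractile genes ran opposite to the slow ones, over a smaller range inside each group. With vehicle, the highest library exceeded the lowest 6.50-fold for Pvalb, the widest fast gene, and 13.3-fold for Myh7b, the narrowest slow gene. Of 14 listed, 12 were tested. In weight matching over vehicle 2 of 12 rose, where 1.11% of all genes rose: Tnni2, the fast inhibitory troponin, with a log2 fold change of 0.34 ± 0.09 and an adjusted p of 0.0457, and Mylk2, the kinase that phosphorylates fast regulatory light chain, with 0.54 ± 0.13 and an adjusted p of 0.0343 in edgeR. Tnni2 averaged 4516 ± 570 CPM with weight matching (SD, n = 8) and 3566 ± 471 CPM with vehicle (SD, n = 7), and Mylk2 averaged 1738 ± 298 CPM with weight matching and 1197 ± 251 CPM with vehicle. Both calls were lost without vehicle libraries 2 and 5, at adjusted p-values of 0.191 for Tnni2 and 0.122 for Mylk2, without 2, 5 and 8, at 0.469 and 0.327, and with voom quality weights, at 0.135 and 0.0995. With single libraries left out, Tnni2 passed in 6 of 15 fits, up to an adjusted p of 0.09999 without 1 of vehicle libraries 2, 5, 7 and 8 or weight-matched libraries 25, 26, 27, 28 and 30, and Mylk2 in 8 of 15, up to 0.0860 without 1 of vehicle libraries 5, 7 and 8 or weight-matched libraries 25, 27, 28 and 30. The fold change was positive for 12 of 12, with a median log2 of 0.45, and 12 of 12 had an unadjusted p under 0.05, where 19.2% of all genes did. The deviations of these 12 all ran against the mean of the slow genes, with r from -0.58 for Tnni2 to -0.89 for Tpm1. All 12 were also compared with the same vehicle libraries. Their signs and p-values, in each of the comparisons, are therefore not independent of each other, and 12 of 12 does not count as 12 separate results. For CagriSema over weight matching 0 of 12 passed (5 at an unadjusted p under 0.05, where 7.65% of all genes lay), and the log2 fold change was negative for 12 of 12 with a median of -0.32. For CagriSema over vehicle 0 of 12 passed, where 0.0321% of all genes did (1 at an unadjusted p under 0.05, near the 10.3% of all genes), with a median of 0.12. Across libraries, the deviation of Myh4 correlated with that of Myh7 with r = -0.825 and rho = -0.864, and its slope of -0.16 shows the narrower range.

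Of 14 other genes of slow or oxidative fibres, 0 passed in any comparison in edgeR, with 1, 6 and 2 at an unadjusted p under 0.05 for CagriSema over vehicle, weight matching over vehicle and CagriSema over weight matching, where 10.3%, 19.2% and 7.65% of all genes lay under that limit. Atp2a2, the calcium pump SERCA2 of slow and heart muscle, followed the 9 genes closely, with r = 0.977 and rho = 0.980 to Myh7, and averaged 1022 ± 407 CPM with CagriSema, 567 ± 335 CPM with weight matching (SD, n = 8 each) and 1053 ± 896 CPM with vehicle (SD, n = 7). Mb, the oxygen store myoglobin, which oxidative fast fibres also hold, followed with r = 0.8001 and rho = 0.845 and a slope of 0.25. Not every gene of this list joined them: Csrp3, Tpm2, Pln and Ankrd2 had r of -0.04, 0.25, 0.26 and 0.46 to the mean of the 9 genes. Csrp3 and Ankrd2 are stretch-responsive proteins of the sarcomere, and Pln was low, at most 2.74 CPM in any library. Csrp3 averaged 184 ± 149 CPM with CagriSema, 107 ± 73 CPM with weight matching (SD, n = 8 each) and 519 ± 779 CPM with vehicle (SD, n = 7), with vehicle library 2 at 2268 CPM.

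Of 25 tested regulators of fibre type, again 0 passed in any comparison in edgeR (4, 7 and 3 at an unadjusted p under 0.05, in the same order of comparisons and against the same shares of all genes). Sox6, a repressor of slow genes in fast fibres, averaged 28.6 ± 5.0 CPM with CagriSema, 34.2 ± 6.7 CPM with weight matching (SD, n = 8 each) and 24.8 ± 6.4 CPM with vehicle (SD, n = 7), and had r = -0.73 to the mean of the 9 genes. Prox1, a homeobox factor needed for slow fibre identity in mice, had r = 0.85 and was low, at 3.34 ± 1.01, 2.54 ± 1.57 and 3.55 ± 2.58 CPM in the same order of groups. The calcineurin genes Ppp3ca and Ppp3r1 had r = -0.89 and -0.85. These 4 lie toward the ends of the list: over the 25, r ran from -0.89 for Ppp3ca to 0.85 for Prox1. Others lay near 0, with 0.01 for Tnik, 0.04 for Six4, -0.06 for Mef2d and 0.06 for Tead1, so the list as a whole did not follow the 9 genes. These correlations, over 23 libraries after removal of group means, are descriptions. Sox6, Prox1, Ppp3ca, Ppp3r1, Tnik, Six4, Mef2d, Tead1, Csrp3, Tpm2, Pln, Ankrd2 and Pvalb were named after their values were seen.

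Among embryonic and cardiac contractile genes, 6 were tested and 1 fell in weight matching over vehicle, where 1.17% of all genes fell. This was Actc1, the cardiac actin that developing and regenerating muscle also uses, with a log2 fold change of -1.92 ± 0.48 and an adjusted p of 0.0395. Actc1 had lowest, median and highest levels of 6.87, 10.1 and 20.7 CPM with weight matching, and 14.5, 19.4 and 121.5 CPM with vehicle, where library 5 was the highest, and it did not follow the slow genes (r = 0.22). Without vehicle libraries 2 and 5 its log2 fold change was -0.82 with an adjusted p of 0.364, without 2, 5 and 8 it was -0.85 with 0.581, and it passed in 6 of 15 fits with single libraries left out, up to an adjusted p of 0.124 without 1 of vehicle libraries 2 and 5 or weight-matched libraries 25, 26, 27, 28, 30, 31 and 32. The other tested genes of this list did not pass in any comparison.

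By the likeness rule, the genes whose deviations correlated most with the mean standardised deviation of the 9 genes, among 10657 genes with a mean of at least 1 CPM, were Myh6 (r = 0.983), Atp2a2 (0.980), Tns1 (0.957), Tecrl (0.953), Slc38a1 (0.948), Ncf1 (0.941), Lgi1 (0.935) and Cfi (0.934), over 23 libraries. Myh6, the atrial heavy chain, is a close copy of Myh7, stood at 2.01 ± 0.45 counts per 100 Myh7 counts with CagriSema, 1.98 ± 0.42 with weight matching and 2.27 ± 0.37 with vehicle, and its counts may be reads shared with Myh7. The genes that ran most opposite were Prkab2 (r = -0.907), a beta subunit of the energy sensor AMPK, Setd3 (-0.906), Zfp91 (-0.897) and Ccng1 (-0.893). None of these 12 passed the test in any comparison.

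Markers of some other cells ran with the slow genes from library to library, and those of others did not. All 5 endothelial markers with a row had r of 0.61 to 0.70 to the mean of the 9 genes, and their summed level ran from 144 to 212 CPM with CagriSema, 128 to 201 CPM with weight matching and 158 to 265 CPM with vehicle. The 8 fibroblast and tendon markers had r from -0.25 to 0.63, and summed to 443 to 751 CPM with CagriSema, 410 to 865 CPM with weight matching and 716 to 1739 CPM with vehicle. Of these, Col1a1 and Col3a1, fibrillar collagens, fell in weight matching over vehicle, with log2 fold changes of -1.52 ± 0.35 and -1.27 ± 0.28 and adjusted p-values of 0.0315 and 0.0262. Without vehicle libraries 2 and 5 their log2 fold changes were -1.22 and -0.88, with adjusted p-values of 0.186 and 0.185, and without 2, 5 and 8 they were -0.94 and -1.09, with 0.512 and 0.102. With single libraries left out, Col1a1 passed in 8 of 15 fits, up to an adjusted p of 0.0825 without 1 of vehicle libraries 2, 5 and 8 or weight-matched libraries 25, 26, 28 and 30, and Col3a1 in 12 of 15, up to 0.0799 without 1 of vehicle libraries 2 and 5 or weight-matched library 30. The 4 smooth muscle markers had r of 0.46 to 0.66 and summed to 79.2 to 176 CPM with CagriSema, 58.3 to 140 CPM with weight matching and 71.6 to 179 CPM with vehicle, and 4 tested Schwann cell markers had r of 0.26 to 0.62. Macrophage markers (6) had r of -0.28 to 0.04, red blood cell markers (2) 0.05 to 0.16, adipocyte markers (6) -0.24 to 0.00 but for Fabp4 at 0.52, and satellite cell markers (4) ran from -0.62 for Myod1 to 0.32 for Myf5. The part of these cells in the spread of the slow genes was not tested.

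Since the 9 genes move together, their promoters were searched for letters that muscle factors are known to bind. RefSeq (GRCr8) gave a window for 7 of the 9, with none for Myl2 and Tnnc1 and 3 start sites for Tpm3, and the 250 bases before each start were searched on both strands. The motifs were the E-box (CANNTG) of myogenic factors, the MCAT box (CATTCC) of TEAD factors, the CACCC box (CACCC), and by name the MEF2 site and the CArG box of SRF. An E-box was found for 7 of 7 genes, where 65.2% of 27457 promoters hold one (Tpm3 counted through 1 of its 3 windows), and a CACCC box for 6 of 7, where 49.4% do. MCAT was found for 1 of 7 (11.8% of all promoters), MEF2 for 1 of 7 (3.07%) and the CArG box for 1 of 7 (1.5%). A match is a description of letters, not a site, and for 7 genes these counts set nothing apart. A CACCC match can overlap an E-box or MCAT match at an end.

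The 3 windows printed below were chosen after the matches were seen, from a thin-filament, a light chain and a Z-disc gene, to show what the genes hold. Capitals mark matches to the E-box, MCAT, MEF2 and CArG motifs, and each window ends at the base before the start. They lie at chr1:78348785-78349034 on the plus strand for Tnnt1, chr8:119616844-119617093 on the plus strand for Myl3 and chr2:213852779-213853028 on the minus strand for Myoz2.
Tnnt1: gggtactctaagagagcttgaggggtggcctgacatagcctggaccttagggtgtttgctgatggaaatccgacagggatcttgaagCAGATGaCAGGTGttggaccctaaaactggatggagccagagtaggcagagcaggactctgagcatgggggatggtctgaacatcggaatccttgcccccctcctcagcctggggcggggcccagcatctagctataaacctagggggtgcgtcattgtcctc
Myl3: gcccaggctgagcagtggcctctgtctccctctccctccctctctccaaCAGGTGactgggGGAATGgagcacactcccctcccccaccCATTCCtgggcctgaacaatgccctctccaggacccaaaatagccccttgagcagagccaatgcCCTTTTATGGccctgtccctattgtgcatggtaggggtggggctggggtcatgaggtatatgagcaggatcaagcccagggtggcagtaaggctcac
Myoz2: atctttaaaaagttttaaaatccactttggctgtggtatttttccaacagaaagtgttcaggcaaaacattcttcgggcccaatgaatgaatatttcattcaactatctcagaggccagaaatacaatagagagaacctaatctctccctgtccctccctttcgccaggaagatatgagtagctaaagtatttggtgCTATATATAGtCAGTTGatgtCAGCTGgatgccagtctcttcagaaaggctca
Tnnt1 holds 2 E-boxes, which begin at -163 and -156 relative to the start. Myl3, the gene with the largest difference between CagriSema and weight matching, holds 1 E-box, an MCAT box on each strand, at -189 and -161, and a CArG box at -97. Myoz2, one of the looser followers of Myh7, holds a MEF2 match at -53 with 2 E-boxes at -42 and -32, and no CACCC box. Whether these letters bear on the levels of the genes was not tested.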

How the data were processed

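Bulk RNA of 23 quadriceps libraries was analysed as gene counts, with 23 liver libraries used only for levels. The authors deposited 1 table of whole-number gene counts, not normalized, and library totals are given in the text. Per the labels' protocols, an RNeasy Minikit gave the RNA and a Twist UMI system the libraries. The submitters' processing notes name fastp 0.23.1 and STAR 2.5.2b. Not given in the sources used here are the build, annotation, counting program, strand setting and use of molecular identifiers, so reads of close paralogs (Myh7, Myh6, Myh4) may be shared. Columns were matched to samples by title, and 1 count column that matched no sample was not used. No pair of quadriceps libraries was near-identical (lowest chi-square per degree of freedom 5.47 over 253 pairs).

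In R 4.3.3, edgeR 4.0.16 fitted a quasi-likelihood model with robust estimation to the 3 groups, with filterByExpr, TMM scaling and Benjamini-Hochberg adjustment over 12471 genes at 0.05. CPM uses TMM-scaled totals, and standard errors and 95% intervals come from the same fit. Deviations are log2 CPM (prior count 2) minus the group mean. Shares and ratios were tested with exact two-sided permutation in scipy 1.17.1, where the smallest p the design allows is 0.000155 for 8 against 8 and 0.000311 for 8 against 7. The share planned for Myh7 had Myh1 and Myh2 in its denominator, and was computed without them. Wilson intervals and count floors cover counting error only. Alternatives were DESeq2 1.42.0, limma 3.58.1 voom with quality weights, RLE scaling, no mitochondrial genes, no filter, only the groups compared, and libraries left out. The edgeR step was tested on simulated counts.

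The genes and lists were chosen with earlier results of these data known. The ratios to Myh7, the comparison partners Myh4, Myh6, Atp2a2 and Mb, and leaving out vehicle libraries 2, 5 and 8 were chosen after values were seen. Other genes were named by rule: all members and their fast partners, up to 4 genes past the threshold in each list, and the 8 genes with the highest and 4 with the lowest (most negative) correlation. Sequences are from RefSeq tables.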

Additional observations from a re-analysis of the deposited data

Results flagged for a closer look

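A library far from the rest of its group by Dixon's test was found in 8 of 72 groups of values tested. About 1 in 20 would be flagged by chance if the groups were independent and normal. They are not independent, since the genes move together and the ratios share Myh7, so no excess is read from the 8. The 8 are given as values, with no cause tested. Among levels, Myoz2 stood apart in CagriSema library 35, at 295 CPM. Among slow shares, Myl2 stood apart in the same library, at 4.97% of Myl2 plus Mylpf counts. The other 6 are ratios to Myh7, in counts per 100 Myh7 counts. Myl3 was at 31.2 in CagriSema library 39. In weight-matched library 30, the lowest of its group in Myh7, Tnni1 was at 15.01, Tpm3 at 24.6 and Myh7b at 6.12. In vehicle library 1, also the lowest of its group in Myh7, Tnnt1 was at 20.5 and Tpm3 at 21.9.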

How the results depend on the processing

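No paired analysis was possible because the groups compared share no library number in their titles. The 0 of 9 count held in all 3 comparisons under every alternative run and with each library left out, and so did the negative signs of weight matching over vehicle and the positive signs of CagriSema over weight matching. The near-zero changes of CagriSema over vehicle turned positive with voom quality weights, at 0.52 for Myh7, 0.54 for Myl2, 0.42 for Tnni1, 0.41 for Tnnt1, 0.52 for Tnnc1, 0.26 for Tpm3, 0.29 for Myoz2 and 0.45 for Myh7b (log2). Without vehicle libraries 2, 5 and 8 they were 0.30, 0.46, 0.15, 0.24, 0.37, 0.10, 0.31 and 0.36 in that gene order. Without 2 and 5, Myl3 turned to -0.0033. With single libraries left out, they ran from -0.33 to 0.23 for Myh7, -0.30 to 0.30 for Myl2, -0.12 to 0.41 for Myl3, -0.41 to 0.14 for Tnni1, -0.38 to 0.15 for Tnnt1, -0.33 to 0.19 for Tnnc1, -0.40 to 0.076 for Myoz2 and -0.27 to 0.34 for Myh7b. Most lows came without vehicle library 1 and nearly all highs without vehicle library 7 or 8. Slow shares of CagriSema minus vehicle turned positive on the logit scale, at 0.23 for Myh7, 0.13 for Tnni1, 0.17 for Tnnt1, 0.19 for Tnnc1, 0.26 for Myl2 and 0.41 for Myl3. Without vehicle libraries 2, 5 and 8 they were 0.39 points for Myh7, 0.21 for Tnnt1, 0.084 for Tnnc1, 0.35 for Myl2 and 1.37 for Myl3, and stayed negative for Tnni1 at -0.075. With single libraries left out they ran from -1.88 to 0.064 for Myh7, -1.34 to 0.22 for Myl2 and -1.86 to 1.40 for Myl3. The Myl3 share of CagriSema minus weight matching ran from 3.50 to 4.94. Counts of all genes changed moved more. For CagriSema over vehicle, 4 became 38 with DESeq2, 0 with voom, 2 with only those groups, 0 without vehicle libraries 2 and 5 and 0 without 2, 5 and 8, and 0 to 7 with single libraries left out. For weight matching over vehicle, 285 became 131 with no filter, 693 with DESeq2, 53 with voom, 7 with only those groups, 19 without 2 and 5 and 5 without 2, 5 and 8, and 46 (without vehicle library 5) to 645 (without vehicle library 1) with single libraries left out. For CagriSema over weight matching, 16 became 7 with no filter, 34 with DESeq2, 29 with voom, and 2 to 17 with single libraries left out. The 5 listed genes that are not members and passed in weight matching over vehicle kept their direction under every alternative run, with 3 or 4 of 8 alternatives keeping each call. The cause of these moves was not tested.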
